A study of Mus musculus with 12 samples.

Results

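The comparison described here set TSLP-elicited mature basophils against IL-3-elicited immature basophils, and it used 6 of the 12 RNA-seq libraries of the series, 3 in each group. The members were the libraries whose labels gave these 2 cytokine and stage combinations. Marrow cells from C57BL/6J mice without an engineered allele had grown for 7 days in IL-3 (interleukin-3) at 0.3 ng/mL or in TSLP (thymic stromal lymphopoietin), both recombinant, and bone marrow-derived basophils (BMBA) were then sorted as CD200R3+ c-Kit- cells. The treatment protocol in the labels gave the TSLP dose as 1 µg/mL and the sample characteristics gave it as 1 mg/mL, and the former is the dose in the study's methods. Immature cells, called pre-basophils by the study, were FcεRIα hi CD49b lo, and mature cells were FcεRIα lo CD49b hi. Cytokine and stage therefore both differed between these groups, the cells of every group came from cultures and not from an animal's tissue, and the libraries were made from bulk RNA of sorted cells. IL-3-elicited mature cells, from the same kind of IL-3 culture as the immature ones, served as the reference for how far a mature basophil lay from IL-3 immature cells. The question set by the study was which features, if any, TSLP-elicited mature cells have in common with IL-3 pre-basophils.

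Basophils are rare granulocytes that store histamine and proteases, bind IgE through the high-affinity receptor FcεRI and release IL-4 and other type 2 mediators. IL-3 acts through the receptor chains encoded by Il3ra and Csf2rb, and TSLP through a receptor of Crlf2 and Il7r, and both receptors signal through JAK kinases and the transcription factor STAT5. During their last stage of maturation in the marrow basophils stop dividing, change their surface receptors and leave for the blood.

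The 3 IL-3 immature libraries held between 1720065 and 3228981 counts, and the 3 TSLP mature libraries between 3568166 and 3685285. The table listed 31301 genes, and 10861 of them passed the filter on low counts and were tested. TSLP mature replicate 1 stood apart from the other replicates of its group, with a chi-square per degree of freedom of 44.1 against replicate 2 and 55.4 against replicate 3, where replicates 2 and 3 gave 6.95 and the IL-3 immature pairs between 5.49 and 13.6. Where a list's count or median, or a gene's called change, moved by over 1.5 times without that library, or a call changed, the value without it is added. Transcript length also moved with the comparison. Among 317 tested genes whose longest transcript was under 750 bases the median log2 fold change was -1.25, and the medians of the longer classes lay between -0.13 and 0.14. For IL-3 mature against IL-3 immature the median of the short class was -0.04. The short class was lower than the IL-3 immature mean in each TSLP mature library, by a median of -0.67 in replicate 1, -1.11 in replicate 2 and -1.78 in replicate 3 on the log2(CPM + 1) scale, where CPM is the count scaled to 1000000 counts of the TMM-scaled library size. The part of transcript length in the results was not tested, and a fit with the length trend of each library removed is quoted where it changed a result.

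**Figure D1:**
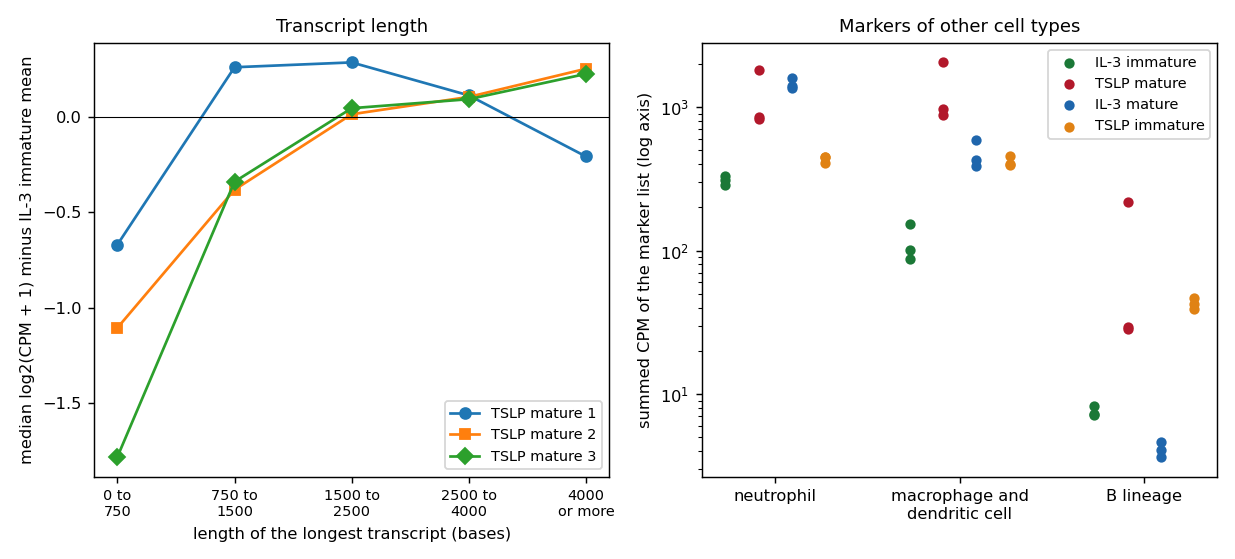
Left, median difference from the IL-3 immature mean on the log2(CPM + 1) scale for tested genes in classes of transcript length (bases), 1 line per TSLP mature library; the shortest class lay at -0.67, -1.11 and -1.78. Right, summed CPM of 3 marker lists of other cell types on a log axis, 1 point per library and 4 groups; TSLP mature replicate 1 gave the highest point of each list among the TSLP mature libraries.

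TSLP mature and IL-3 immature basophils differed across the transcriptome. Of the 10861 genes tested, 5492 (50.6%) were called at an adjusted p under 0.05, 2937 (27.0%) higher and 2555 (23.5%) lower in TSLP mature cells. At changes of 8-fold or more the order was the other way, with 204 genes higher and 344 lower. With DESeq2 size factors, which moved the median of all genes by -0.09 on the log2 scale, 2601 genes were higher and 2793 lower. Which direction held more genes thus depended on the scaling, and also on the filter, on thinning and on the libraries kept. For 3476 genes (32.0%) the 95% interval of the difference lay within 2-fold, and 2190 genes were neither called nor bounded in this way. IL-3 mature cells differed from the same IL-3 immature libraries at 2616 genes higher (24.1%) and 2404 lower (22.1%), and TSLP mature cells differed directly from IL-3 mature cells at 2634 genes (24.3%). The first and second of these comparisons share the IL-3 immature libraries, and the third shares a group with each.

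**Figure D2:**
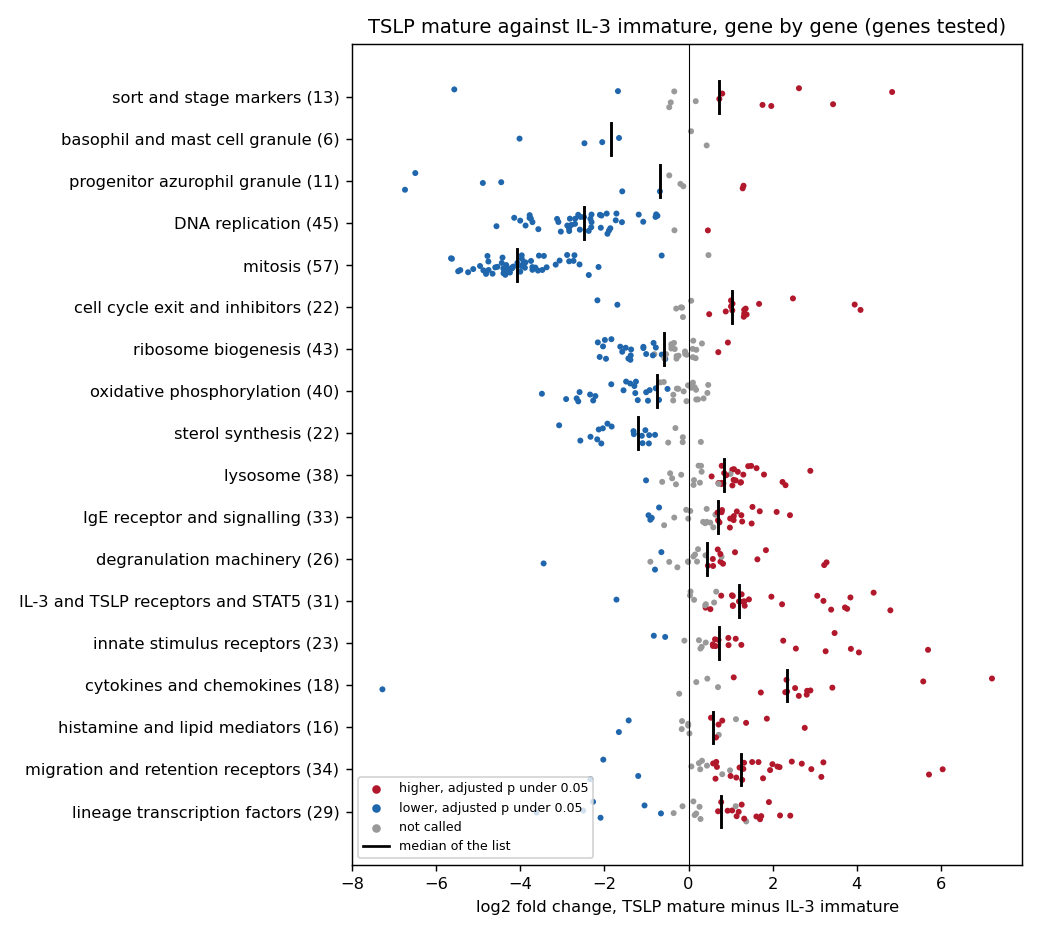
Log2 fold change of TSLP mature against IL-3 immature (horizontal axis) for every tested gene of 18 lists, with the number tested in parentheses. Points are genes, coloured by call, and black bars are list medians; DNA replication and mitosis lay furthest to the left, with medians of -2.49 and -4.07, and cytokines and chemokines furthest to the right, with 2.34.

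Surface markers of the basophil stages separated the groups in the direction of maturity. Itga2, which encodes CD49b, an antigen used in the sort, was at 31.0, 28.3 and 22.5 CPM in the 3 IL-3 immature libraries and at 96.9, 209 and 199 CPM in the 3 TSLP mature libraries. All TSLP mature libraries were above all IL-3 immature ones, and the log2 fold change was 2.63 ± 0.27 (SE, n = 3 in each group, as throughout; adjusted p = 1.17e-06). Clec12a, an inhibitory C-type lectin known as a marker of pre-basophils, was at 253, 291 and 238 CPM in IL-3 immature and at 12.1, 2.27 and 1.54 CPM in TSLP mature cells. It fell by 5.57 ± 0.48 on the log2 scale (adjusted p = 1.93e-07), and by 7.18 without TSLP mature replicate 1, the library with the highest of these low values. The tetraspanin gene Cd9, a marker of mature basophils, was at 308, 327 and 321 CPM against 1356, 771 and 1113 CPM. It rose by 1.76 ± 0.21 (adjusted p = 5.83e-06). None of these genes differed from IL-3 mature cells past the threshold, with log2 differences of -0.55 ± 0.25 for Itga2, -0.24 ± 0.58 for Clec12a and 0.24 ± 0.21 for Cd9 (adjusted p = 0.117, 0.793 and 0.428).

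Fcer1a, the IgE-binding chain used as the other sort antigen, was at 1599, 1614 and 1584 CPM in IL-3 immature cells and at 1779, 871 and 1141 CPM in TSLP mature cells. The TSLP mature libraries lay on both sides of the immature ones, and the difference of -0.34 ± 0.24 was not called (adjusted p = 0.248). Without TSLP mature replicate 1 it was -0.80 with an adjusted p of 0.0018. Cd34, a progenitor antigen, was low in both groups, at 5.34 to 7.71 CPM and 1.08 to 2.84 CPM, and fell by 1.68 ± 0.44 (adjusted p = 0.00352). Cd200r3, an activating receptor on which all cells had been sorted, rose by 0.80 ± 0.17 (adjusted p = 0.000921), from 662 to 766 CPM to 1153 to 1359 CPM. Kit, whose product the sort excluded, was at 0 to 1.46 CPM in the IL-3 immature and at 0 to 0.284 CPM in the TSLP mature libraries, too low to test. Over the stage marker list 7 of 13 tested genes were higher and 2 lower, with 4 within 2-fold and a median of 0.73, against 0.07 over all genes tested. Without TSLP mature replicate 1 the lower genes were 5. Of the higher ones, the heat-stable antigen gene Cd24a rose by 4.84 ± 0.28 and the integrin gene Itgam by 3.44 ± 0.17 (adjusted p = 1.3e-09 and 1.23e-09). About 66.3% of the 50-base words of Itgam transcripts also occur in an overlapping read-through gene model, so its counts could be split between them. On GRCm38, Clec12a lies on chromosome 6 at 129342691 to 129365303 (plus strand) and Itga2 on chromosome 13 at 114833081 to 114932100 (minus strand).

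**Figure D3:**
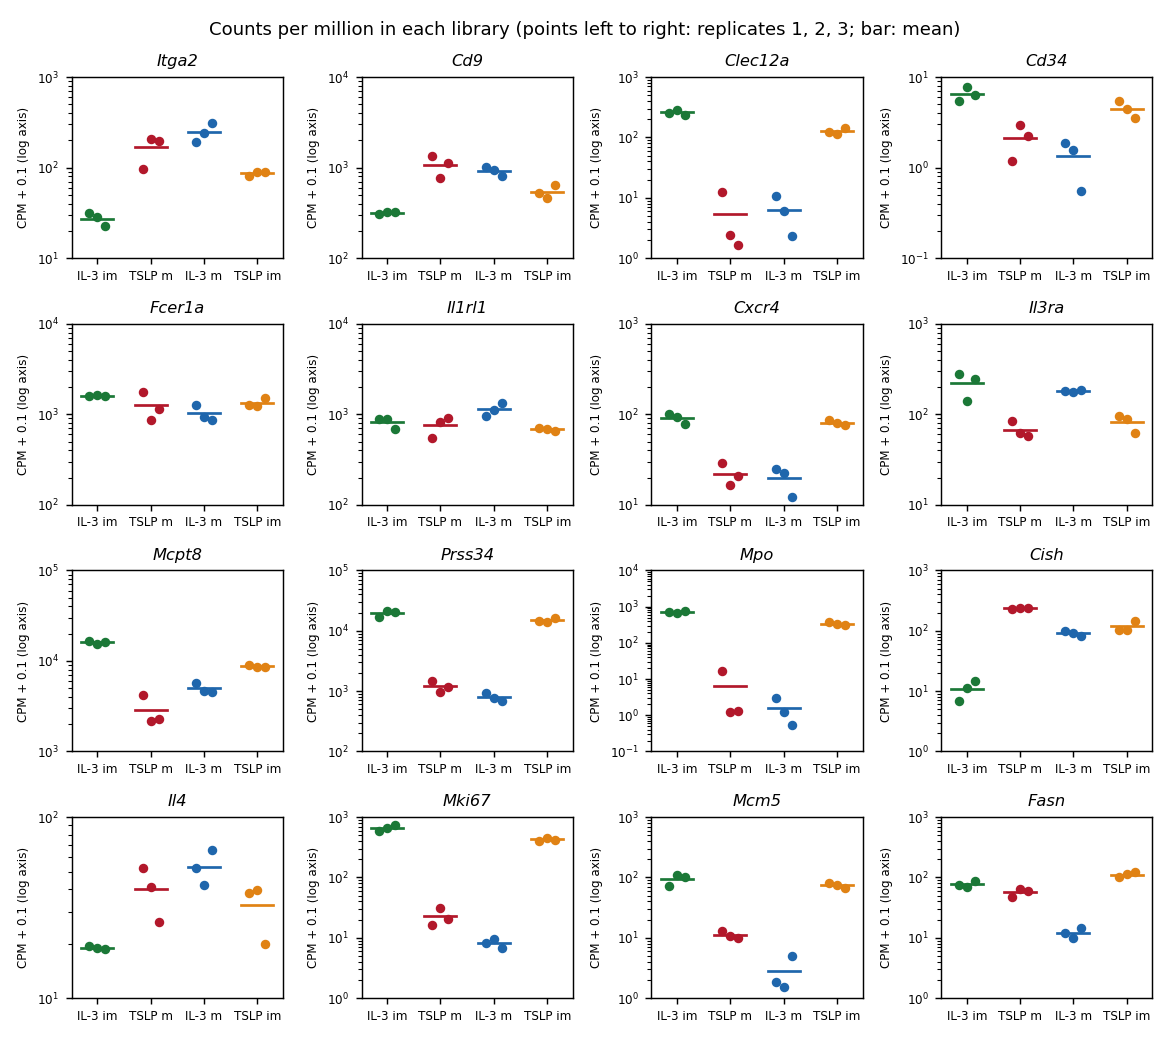
CPM plus 0.1 on a log axis for 16 genes in each library of the 4 groups (im, immature; m, mature); points from left to right in a group are replicates 1, 2 and 3 and bars are means. All TSLP mature points of Clec12a, Cxcr4, Prss34, Mpo, Mki67 and Mcm5 lay below all IL-3 immature points, those of Mki67 and Mcm5 also lay above all IL-3 mature points, and those of Fasn lay nearer to IL-3 immature than to IL-3 mature points.

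Proteases that basophils and their precursors store in granules were lower in TSLP mature than in IL-3 immature cells. Prss34, the serine protease mMCP-11 of basophils, was at 17108, 21227 and 20606 CPM in IL-3 immature libraries and at 1499, 961 and 1173 CPM in TSLP mature libraries. It fell by 4.02 ± 0.21 on the log2 scale (adjusted p = 2.62e-09). Mcpt8, the basophil-restricted protease mMCP-8, was at 16424, 15574 and 16382 CPM against 4236, 2166 and 2290.4 CPM, a fall by 2.48 ± 0.24 (adjusted p = 7.54e-07). Carboxypeptidase Cpa3 fell by 2.05 ± 0.19 (adjusted p = 4.22e-07). TSLP mature cells were also below IL-3 mature cells for Mcpt8 and Cpa3, by log2 differences of -0.78 ± 0.24 and -1.01 ± 0.19 (adjusted p = 0.0257 and 0.00201), and above them for Prss34, by 0.62 ± 0.21 (adjusted p = 0.0413). For Prg2, the major basic protein, the TSLP mature libraries held 19.4, 0.851 and 1.54 CPM, and its fall by 1.65 ± 0.67 (adjusted p = 0.0474) was 4.39 without replicate 1 and was not called with the length trend removed (adjusted p = 0.10). In all 4 of 6 tested genes of this list were lower and none higher, and 10 of its 16 genes, most of them mast cell proteases, were too low to test.

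Among genes of the azurophil granules that myeloid progenitors make, 6 of 11 tested were lower in TSLP mature cells, and Mpo, Ms4a3, Prss57 and Ctsg fell most. Mpo, myeloperoxidase, was at 730.1, 651 and 759.8 CPM in IL-3 immature cells and at 17.0, 1.13 and 1.23 CPM in TSLP mature cells, so that replicate 1 alone held most of the remaining counts. It fell by 6.74 ± 0.56 (adjusted p = 3.14e-07), and by 9.31 without that library. Ms4a3, a granulocyte-monocyte progenitor gene, fell by 6.50 ± 0.36 and the protease cathepsin G gene Ctsg by 4.46 ± 0.24 (adjusted p = 2.12e-09 and 3.52e-09), and Ms4a3 by 7.47 without the same library. The serine protease gene Prss57 fell by 4.89, and by 5.5 without it. Higher were Lyz2 and Igsf6, which macrophages also express, and Lyz2 was not called when TSLP mature replicate 1 was left out (0.27, adjusted p = 0.392). The list median was -0.68. The counts were 9 lower and 1 higher without TSLP mature replicate 1, with a median of -2.18.

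Genes of DNA replication and mitosis were lower in TSLP mature than in IL-3 immature cells almost without exception, and some of them were higher than in IL-3 mature cells. Of 57 mitosis genes 56 were lower and none higher, with a median of -4.07. Among 45 DNA replication genes 43 were lower and 1 higher, with a median of -2.49; the higher one, Rfc2 of the clamp loader (0.46, adjusted p = 0.047), was not called without TSLP mature replicate 1. In IL-3 mature cells 56 and 43 genes of these lists were lower than in the same IL-3 immature libraries, with medians of -5.64 and -3.95. Tested directly, 26 mitosis genes were higher and 3 (Kif20b, Kif23 and Smc4) lower in TSLP mature than in IL-3 mature cells, and 23 replication genes were higher and none lower. Whether a few dividing cells or a low level in every cell gave these counts cannot be told apart in bulk RNA, which holds for every result here.

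Mki67, the proliferation antigen, was at 600.1, 665 and 732 CPM in IL-3 immature libraries, at 16.2, 31.2 and 20.3 CPM in TSLP mature libraries and at 8.19, 9.47 and 6.76 CPM in IL-3 mature libraries. The groups did not overlap, and TSLP mature cells were lower than IL-3 immature cells by a log2 difference of -4.88 ± 0.22 (adjusted p = 7.6e-10) and higher than IL-3 mature cells by 1.46 ± 0.26 (adjusted p = 0.00131). Mcm5, a subunit of the replicative helicase, was at 71.3, 111 and 103 CPM, at 12.95, 10.5 and 9.85 CPM, and at 1.78, 1.46 and 4.96 CPM in the same order of groups. DNA ligase 1, encoded by Lig1, fell by 4.15 ± 0.29 against IL-3 immature cells (adjusted p = 2.1e-08) and was 2.83 ± 0.57 higher than in IL-3 mature cells on the log2 scale (adjusted p = 0.00111). Ttk, the spindle checkpoint kinase, held 22.3, 21.1 and 20.2 CPM in IL-3 immature cells and 0.809, 0.284 and 0 CPM in TSLP mature cells, a fall by 5.65 ± 0.70 (adjusted p = 6.3e-08), and by 6.91 without TSLP mature replicate 1. A few members stayed close to IL-3 immature cells. Pola2, the accessory subunit of DNA polymerase alpha, was at 12.6, 14.6 and 15.2 CPM against 10.8, 11.6 and 11.4 CPM, with a log2 difference of -0.33 (95% interval -0.78 to 0.11), and was higher than in IL-3 mature cells by 1.13 ± 0.25 (adjusted p = 0.00415). Bub3, a spindle checkpoint protein, fell by 0.64 ± 0.17 (adjusted p = 0.0052).

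The promoters of these lists differ in the short sequences they hold, and 1 of each is shown for that reason. The cell cycle homology region CHR, with the letters TTTGAA, is the site through which the DREAM complex holds mitotic genes down in resting cells, and E2F sites serve replication genes. In windows from 250 bases before to 50 bases after the RefSeq start (GRCm38.p6), TTTGAA on either strand was found in 38 of 51 promoters (74.5%) of 48 mitosis genes, in 5 of 42 (11.9%) of 36 replication genes, and in 17.9% of all 32851 promoters. The E2F words TTTGGCGC or TTTCCCGC were found in 11 of 42 replication promoters (26.2%), in 4 of 51 mitosis promoters (7.84%) and in 1.56% of all promoters. A match describes the letters and shows no binding. Below, the capitals mark the match: the Ttk promoter (chr9:83834439-83834738, plus strand) holds TTTGAA in reverse, read as TTCAAA, beginning 7 bases after the start, and the Cdc6 promoter (chr11:98907901-98908200, plus strand) holds the E2F word TTTCCCGC in reverse. These were the members with the largest change among those with a match.
Ttk: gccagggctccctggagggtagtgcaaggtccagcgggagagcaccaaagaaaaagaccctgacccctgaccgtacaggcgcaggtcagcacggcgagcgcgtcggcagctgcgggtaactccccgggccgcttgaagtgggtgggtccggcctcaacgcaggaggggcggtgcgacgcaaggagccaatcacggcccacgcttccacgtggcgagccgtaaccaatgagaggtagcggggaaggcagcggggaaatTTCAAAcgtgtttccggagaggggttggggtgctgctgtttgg
Cdc6: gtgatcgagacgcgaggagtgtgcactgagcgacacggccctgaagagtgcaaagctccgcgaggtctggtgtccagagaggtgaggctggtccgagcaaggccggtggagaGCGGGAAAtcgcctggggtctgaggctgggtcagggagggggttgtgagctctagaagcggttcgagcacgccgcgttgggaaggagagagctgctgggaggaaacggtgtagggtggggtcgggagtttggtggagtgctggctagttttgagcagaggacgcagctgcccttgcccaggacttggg
Cdc6, which loads the replicative helicase onto DNA, was at 22.8, 21.7 and 20.9 CPM in IL-3 immature cells and at 1.89, 1.42 and 1.54 CPM in TSLP mature cells. Its TSLP mature level fell by 3.71 ± 0.44 (adjusted p = 1.23e-06) and was not separated from IL-3 mature cells (log2 difference 0.48 ± 0.63, adjusted p = 0.605). On the side of cell cycle exit 15 of 22 tested genes were higher and 2 lower. The antiproliferative genes Btg1 and Btg2 rose by 2.48 ± 0.20 and 1.68 ± 0.24 (adjusted p = 1.2e-07 and 4.5e-05). The 2 lower ones were the p107 gene Rbl1 (-2.17 ± 0.27) and the CDK inhibitor gene Cdkn2c (-1.69 ± 0.19).

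Biosynthetic gene groups were lower too, again by less than in IL-3 mature cells for some of them. Ribosome biogenesis genes, which build ribosomal subunits in the nucleolus, were lower for 21 of 43 and higher for 2 (Bop1 and Polr1c), with 14 within 2-fold and a median of -0.58. When TSLP mature replicate 1 was left out, 23 were lower and none higher. In IL-3 mature cells 33 were lower than in IL-3 immature cells and the median was -1.44, and 16 of the 43 were higher and 1 lower in TSLP mature than in IL-3 mature cells. Dkc1, the pseudouridine synthase dyskerin, fell by 2.11 ± 0.23 (adjusted p = 1.7e-06). Mybbp1a, a nucleolar protein, was at 70.3, 43.7 and 45.0 CPM in IL-3 immature cells, 47.5, 45.4 and 60 CPM in TSLP mature cells and 19.2, 23.7 and 15.8 CPM in IL-3 mature cells. Its difference from IL-3 immature cells was -0.05 (95% interval -0.50 to 0.41), while it was 1.37 ± 0.23 above IL-3 mature cells (adjusted p = 0.00101). Sterol synthesis enzymes were lower for 17 of 22 genes and higher for none, with a median of -1.21, against -2.06 in IL-3 mature cells, and 9 of them were higher in TSLP mature than in IL-3 mature cells and none lower. Fdps, farnesyl diphosphate synthase, fell from 152, 146 and 135 CPM to 32.6, 19.9 and 20 CPM. Its log2 difference was -2.57 ± 0.20 (adjusted p = 5.46e-08), and 26.2% of its 50-base words are shared with pseudogenes. Oxidative phosphorylation genes were lower for 22 of 40 with a median of -0.74, but the members with the largest falls, Ndufa5 (-3.49), Ndufa4 (-2.91), Cox7a2 (-2.66) and Uqcrq (-2.62), encode small subunits with short transcripts. Leaving out TSLP mature replicate 1, 27 genes were lower with a median of -1.30, and these 4 differences were between -4.07 and -3.26. With the length trend removed 20 genes of the list were lower and 1 higher, and the median was -0.43.

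Lysosomal genes went the other way. Of 38 genes 24 were higher and 1, the proton pump subunit gene Atp6v1h, lower, with 10 within 2-fold and a median of 0.84. Without TSLP mature replicate 1, 23 were higher and 5 lower. IL-3 mature cells had 18 higher and 1 lower than IL-3 immature cells, with a median of 0.72. Between the mature groups, 7 were higher and 3 lower in TSLP cells. Cathepsin D, encoded by Ctsd, was at 397, 409.9 and 565 CPM in IL-3 immature and at 2609, 2026 and 2158 CPM in TSLP mature libraries, and rose by 2.31 ± 0.20 (adjusted p = 1.87e-07), with 32.4% of its 50-base words shared with an overlapping gene model. Gusb, beta-glucuronidase, was at 70.8, 66.8 and 68.5 CPM against 75.5, 75.8 and 74.2 CPM, and was higher than in IL-3 mature cells by 0.84 ± 0.17 (adjusted p = 0.00265). Markers of macrophages and dendritic cells, which are rich in lysosomes and innate receptors, were higher in the same libraries, with sums of 888.6 to 2052.6 CPM against 87.1 to 153.3 CPM, and their part in the lysosomal, cytokine and receptor results was not tested.

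Genes of the IL-3 and TSLP receptors and of STAT5 signalling were higher in TSLP mature cells for 23 of 31 and lower for 1, with a median of 1.20. IL-3 mature cells had 20 higher and 2 lower than IL-3 immature cells, with a median of 1.16. Between the mature groups, 5 were higher and 6 lower in TSLP cells. The gene lower in TSLP mature than in IL-3 immature cells was Il3ra, the IL-3 receptor alpha chain. It lies on chromosome 14 at 14346275 to 14356011 (GRCm38, plus strand). It was at 279.9, 140.3 and 248 CPM in IL-3 immature libraries, at 83.6, 61.6 and 57.8 CPM in TSLP mature libraries and at 183, 178 and 185 CPM in IL-3 mature libraries. TSLP mature cells were therefore below both IL-3 groups, by 1.71 ± 0.24 and 1.42 ± 0.24 on the log2 scale (adjusted p = 3.11e-05 and 0.00117), and every TSLP mature library lay below every IL-3 library of both stages. Cish, a STAT5 target that restrains cytokine receptors, was at 6.79, 11.1 and 14.6 CPM in IL-3 immature cells, at 233, 238 and 235 CPM in TSLP mature cells and at 100.8, 92.2 and 81.6 CPM in IL-3 mature cells. It rose by 4.40 ± 0.23 (adjusted p = 1.5e-09) and was 1.36 ± 0.20 above IL-3 mature cells (adjusted p = 0.000509). Socs3, another feedback inhibitor of JAK kinases, was at 5.34, 5.71 and 5.63 CPM against 147, 161 and 163 CPM, a rise by 4.80 ± 0.21 (adjusted p = 3.22e-10). It stood below IL-3 mature cells, by a log2 difference of -0.74 ± 0.16 (adjusted p = 0.00428). Cyclin D2, encoded by Ccnd2, and Socs1 rose by 3.77 ± 0.19 and 3.85 ± 0.26 (adjusted p = 1.23e-09 and 8.57e-09). The STAT family word TTCNNNGAA was found in 4 of 29 promoters (13.8%) of 24 genes of this list, those of Cish, Socs3, Il7r and Csf2rb2, and in 8.30% of all promoters. The promoters of the 2 feedback genes that changed most are shown with the matches in capitals, Socs3 at chr11:117969317-117969616 (minus strand, given in the direction of transcription) and Cish at chr9:107296409-107296708 (plus strand), which holds 2 matches beginning at and 11 bases after the start.
Socs3: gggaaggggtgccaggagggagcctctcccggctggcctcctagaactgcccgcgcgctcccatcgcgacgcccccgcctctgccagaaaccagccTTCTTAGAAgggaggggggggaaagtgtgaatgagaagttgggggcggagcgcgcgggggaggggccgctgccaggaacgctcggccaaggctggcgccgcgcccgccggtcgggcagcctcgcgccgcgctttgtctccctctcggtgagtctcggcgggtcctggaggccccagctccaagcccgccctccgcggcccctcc
Cish: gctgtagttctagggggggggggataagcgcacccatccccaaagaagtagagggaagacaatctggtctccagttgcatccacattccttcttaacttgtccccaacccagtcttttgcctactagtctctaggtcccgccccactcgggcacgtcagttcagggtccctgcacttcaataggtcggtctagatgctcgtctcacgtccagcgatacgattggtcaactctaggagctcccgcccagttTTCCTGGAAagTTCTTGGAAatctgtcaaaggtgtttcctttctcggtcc

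IgE receptor signalling genes were higher for 17 of 33 and lower for 4, with 7 within 2-fold and a median of 0.69. Over all genes tested 27.0% were higher and 23.5% lower. IL-3 mature cells had 20 genes of the list higher and 5 lower than IL-3 immature cells, with a median of 0.63. Between the mature groups, 6 were higher and 3 lower in TSLP cells. Syk, the kinase that docks on the receptor's gamma chain, was at 48.5, 56.8 and 74.2 CPM in IL-3 immature and at 158, 172 and 179.7 CPM in TSLP mature cells. It rose by 1.5 ± 0.18 (adjusted p = 5.03e-06) and was also above IL-3 mature cells, by 0.73 ± 0.18 (adjusted p = 0.00784). Pik3cd, the leukocyte PI3 kinase, rose by 2.10 ± 0.16 (adjusted p = 6.44e-08). Fyn, a Src kinase of the same pathway, was at 103, 111 and 97.3 CPM against 97.4, 113 and 99.7 CPM, a log2 difference of -0.01 (95% interval -0.34 to 0.33), and below IL-3 mature cells by a difference of -0.46 ± 0.16 (adjusted p = 0.0436). The beta chain Ms4a2 was lower (-0.70 ± 0.17, adjusted p = 0.0026), as were Prkcb, Itpr1 and Cbl. In the degranulation machinery 12 of 26 genes were higher and 3 (Rab27b, Myo5a and Vamp7) lower, and without TSLP mature replicate 1 the counts were 10 and 5. The shares over all genes tested were 27.0% and 23.5%. IL-3 mature cells had 17 of these genes higher and 3 lower than IL-3 immature cells. Between the mature groups, 1 was higher and 4 lower in TSLP cells. Rab27b, a GTPase of granule docking, was at 46.6, 42.6 and 35.1 CPM in IL-3 immature, 3.24, 1.42 and 6.77 CPM in TSLP mature and 18.9, 16.4 and 15.8 CPM in IL-3 mature cells. TSLP mature cells were below both, by log2 differences of -3.45 ± 0.34 and -2.17 ± 0.35 (adjusted p = 3.24e-07 and 0.000626). Sytl3, a synaptotagmin-like binding partner of Rab27, and the syntaxin gene Stx11 rose by 3.28 ± 0.17 and 3.23 ± 0.30 (adjusted p = 1.2e-09 and 1.5e-07).

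Among mediators, Hdc, which makes histamine, rose from 329, 439 and 461 CPM to 1038, 1073 and 1066 CPM, by 1.37 ± 0.17 (adjusted p = 9.52e-06). Slc18a2, the vesicular monoamine transporter, fell by 1.42 ± 0.28 (adjusted p = 0.000586), with IL-3 immature libraries that ranged from 368 to 962 CPM. Alox5, 5-lipoxygenase, was at 392, 475 and 558 CPM in IL-3 immature, 462, 491 and 492 CPM in TSLP mature and 309.9, 282 and 282 CPM in IL-3 mature cells. It differed from IL-3 immature cells by 0.02 (95% interval -0.33 to 0.38) and from IL-3 mature cells by 0.73 ± 0.17 (adjusted p = 0.00655). Of 16 tested genes of histamine and lipid mediators 7 were higher and 2 (Slc18a2 and the monoamine oxidase gene Maob) lower, and without TSLP mature replicate 1 the higher ones were 3, with a median of 0.10 in place of 0.59. Over all genes tested 27.0% were higher and 23.5% lower, so the 3 higher genes left without that library were not above that share.

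Cytokine and chemokine genes were higher for 13 of 18 tested and lower for 1, with a median of 2.34, in a list where 11 of 29 genes were too low to test. IL-3 mature cells had 14 higher and 1 lower than IL-3 immature cells, with a median of 2.27. Between the mature groups, 3 were higher and 3 lower in TSLP cells. Il4, the signature basophil cytokine, was at 19.4, 18.9 and 18.5 CPM in IL-3 immature and at 52.1, 41.1 and 26.2 CPM in TSLP mature cells. All TSLP mature libraries were higher, with a log2 fold change of 1.07 ± 0.29 (adjusted p = 0.0051). It was 0.71 without TSLP mature replicate 1 (adjusted p = 0.0491) and 2.12 with the length trend removed. Il6 rose by 2.82 ± 0.22 (adjusted p = 8.59e-08), from 85.9, 81.4 and 73.5 CPM to 648, 428 and 625 CPM. Il13, another type 2 cytokine, was at 1.46, 2.29 and 3.31 CPM in IL-3 immature, 3.51, 2.55 and 2.15 CPM in TSLP mature and 8.19, 9.11 and 10.4 CPM in IL-3 mature cells. The TSLP mature level overlapped that of IL-3 immature cells (0.18 ± 0.42, adjusted p = 0.742) and was below IL-3 mature cells by a log2 difference of -1.72 ± 0.36 (adjusted p = 0.00328). Il10 had no count in any library of these groups. Lif, leukemia inhibitory factor, showed the largest rise of the list, from 1.94, 0.571 and 1.32 CPM to 147, 222 and 175 CPM, and IL-3 mature libraries held 25.6, 32.1 and 37.4 CPM. The log2 fold change of Lif was 7.22 ± 0.43 against IL-3 immature cells (adjusted p = 3.22e-10) and 2.52 ± 0.21 against IL-3 mature cells (adjusted p = 9.44e-06). Angpt1, the Tie2 ligand angiopoietin-1, was the one that fell, from 269.7, 170.3 and 116 CPM to 1.35, 0.851 and 1.23 CPM (log2 fold change -7.28 ± 0.49, adjusted p = 1.11e-09).

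A list of receptors for innate stimuli, IL-4 and interferons with their signalling genes was higher for 16 of 23 tested genes. It was lower for 2, the signalling genes Irak1 and Irak3, and without TSLP mature replicate 1 the counts were 13 and 2. Over all genes tested 27.0% were higher and 23.5% lower. IL-3 mature cells had 16 genes of the list higher and none lower than IL-3 immature cells. Between the mature groups, 1 was higher and 4 lower in TSLP cells. Il1rl1, the IL-33 receptor ST2, was at 879, 881 and 679.7 CPM in IL-3 immature and at 550.4, 828 and 899 CPM in TSLP mature cells. These groups overlapped, with a log2 difference of -0.10 (95% interval -0.53 to 0.34), and TSLP mature cells were below IL-3 mature cells by a difference of -0.58 ± 0.21, at the edge of the threshold (adjusted p = 0.0499). Tlr4, the LPS receptor, was at 0.970, 0.286 and 0 CPM against 5.94, 5.67 and 5.54 CPM, a rise by 3.86 ± 0.98 (adjusted p = 0.000384) at a low level. Tlr1 rose by 5.70 ± 0.55 (adjusted p = 6.97e-09), with 15.4% of its 50-base words shared mainly with Tlr6, and Il4ra, a chain of the IL-4 receptor, by 3.26 ± 0.33 (adjusted p = 2.75e-07).

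Migration receptors were higher for 24 of 34 and lower for 3 (Cxcr4, Cx3cr1 and Itga4), with a median of 1.25. IL-3 mature cells had 23 higher and 2 lower than IL-3 immature cells, with a median of 1.30. Between the mature groups, 6 were higher and 8 lower in TSLP cells. Cxcr4, the receptor for the marrow retention signal CXCL12, was at 99.9, 92.8 and 77.5 CPM in IL-3 immature and at 28.9, 16.5 and 20.6 CPM in TSLP mature cells, and fell by 2.03 ± 0.24 (adjusted p = 4.33e-06). The IL-3 mature libraries held 24.6, 22.2 and 12.2 CPM, and the direct difference from them was 0.15 ± 0.26 (adjusted p = 0.707). Cxcr2, a chemokine receptor that serves entry into tissue, rose by 2.92 ± 0.16 (adjusted p = 2.35e-09). C5ar1, the receptor for complement C5a, was at 2.91, 3.43 and 2.65 CPM against 174, 153 and 157 CPM, and rose by 5.72 ± 0.31 (adjusted p = 7.6e-10). Among lineage transcription factors 14 of 29 were higher and 6 lower, with a median of 0.78, and without TSLP mature replicate 1 the counts were 12 and 6 and the median 0.39. The shares over all genes tested were 27.0% higher and 23.5% lower. Myb, a regulator of haematopoietic progenitors, fell from 57.7, 73.4 and 75.5 CPM to 6.21, 7.38 and 3.08 CPM (-3.62 ± 0.29, adjusted p = 4.46e-08), and was 1.42 ± 0.45 above IL-3 mature cells (adjusted p = 0.0226). Nfil3 and Cebpd rose by 2.42 ± 0.19 and 2.18 ± 0.24 (adjusted p = 6.6e-08 and 2.2e-06). Ikzf1, Fli1 and Etv6 lay within 2-fold.

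The largest rises over all genes, outside the lists, were in genes with next to no counts in IL-3 immature cells. Fgfr1, a fibroblast growth factor receptor, had no count in the 3 IL-3 immature libraries and 32.1, 46.2 and 47.1 CPM in TSLP mature cells, at least 119-fold higher when the group's zero is set to the floor of 3 counts. By the same floor Lypd6 was at least 63.0-fold and Bmp7, a bone morphogenetic protein, at least 61.1-fold higher. Asb2, a subunit of an E3 ubiquitin ligase, was at 3.396, 2.29 and 3.31 CPM against 198, 196 and 193 CPM (6.04 ± 0.25, adjusted p = 8.33e-11). IL-3 mature cells held intermediate levels of Fgfr1 (14.2, 9.84 and 11.3 CPM) and Asb2 (99.4, 114 and 124 CPM), and TSLP mature cells were higher for both (adjusted p = 0.00053 and 0.00315). In the other direction the unnamed locus LOC102636203 had no count in TSLP mature cells and 73.3, 106 and 71.5 CPM in IL-3 immature cells, at least 300.4-fold lower. The gap junction gene Gja1 and the centromere gene Cenpw fell by 7.19 ± 1.5 and 6.69 ± 0.89 on the log2 scale (adjusted p = 1.7e-07 and 5.5e-08), and Cenpw by 7.95 without TSLP mature replicate 1.

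Some genes at which IL-3 mature cells had left the pre-basophil level were near that level in TSLP mature cells. They were found by a rule: called between the IL-3 stages, called between the mature groups of the 2 cytokines, and bounded within 2-fold when TSLP mature were set against IL-3 immature cells. A mean of at least 10 CPM over the 12 libraries was also required. The rule held for 247 genes that were higher in IL-3 immature than in IL-3 mature cells and for 233 that were lower. The stage calls alone, without the other conditions, were 2404 and 2616 genes in these directions, so most of them did not meet the rule. Because the 3 comparisons share libraries, these counts describe the groups and are not independent evidence of likeness. The gene with the largest stage difference on the first side was Fasn, fatty acid synthase, at 73.7, 70.0 and 87.1 CPM in IL-3 immature, 47.2, 64.7 and 60.6 CPM in TSLP mature and 11.8, 9.84 and 14.4 CPM in IL-3 mature cells. TSLP mature libraries were all below IL-3 immature ones, by a difference of -0.42 (95% interval -0.80 to -0.04, adjusted p = 0.0619), and were above IL-3 mature ones by 2.26 ± 0.21 (adjusted p = 9.44e-06). Kat2a, a histone acetyltransferase, was at 18.4, 10 and 11.9 CPM, at 12.1, 9.93 and 9.85 CPM and at 2.14, 2.91 and 1.80 CPM in the same order. Vars, valyl-tRNA synthetase, was at 81.5, 77.7 and 98.7 CPM, at 85.5, 59.9 and 71.1 CPM and at 21.7, 24.8 and 15.3 CPM. The Mediator subunit gene Med24, fumarate hydratase Fh1, Nomo1, the arginine methyltransferase Prmt6 and the AAA+ ATPase gene Ruvbl2 completed the first 8 genes, with log2 differences from IL-3 immature cells between -0.41 and -0.20. Without TSLP mature replicate 1, 5 of the 8 (Fasn, Vars, Med24, Fh1 and Ruvbl2) were called lower than IL-3 immature cells, with differences between -0.43 and -0.86.

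On the other side stood genes that IL-3 cells had raised on maturing and that were within 2-fold of IL-3 immature cells in TSLP mature cells. Cplx2, complexin 2, a regulator of vesicle fusion, was at 10.2, 7.14 and 5.63 CPM in IL-3 immature, 9.71, 5.11 and 7.38 CPM in TSLP mature and 34.9, 47.0 and 57.3 CPM in IL-3 mature cells. TSLP mature and IL-3 immature libraries overlapped, with a difference of -0.01 (95% interval -0.67 to 0.65), and TSLP mature cells were below IL-3 mature cells by a difference of -2.63 ± 0.27 (adjusted p = 2.4e-05). Emp2, an epithelial membrane protein, showed the same order, at 8.73, 11.1 and 6.62 CPM, 6.21, 10.2 and 7.69 CPM and 34.2, 69.9 and 48.3 CPM. Serpinb2, a plasminogen activator inhibitor, differed from IL-3 mature cells by -1.89 ± 0.29 on the log2 scale (adjusted p = 0.000577). S100a10 and S100a11, small calcium-binding proteins, met the rule too, but their transcripts are short. With the length trend removed S100a10 and S100a11 were higher in TSLP mature than in IL-3 immature cells, by 1.12 and 1.10 (adjusted p = 2.3e-05 and 1.2e-05), so that S100a11 changed sign. The histone gene Hist2h2aa1, with 89.4% of its 50-base words shared with copies, differed from IL-3 immature cells by 0.54 ± 0.21 (adjusted p = 0.0397), was not called without TSLP mature replicate 1 (0.38, adjusted p = 0.18), and differed by 1.67 with the length trend removed.

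**Figure D4:**
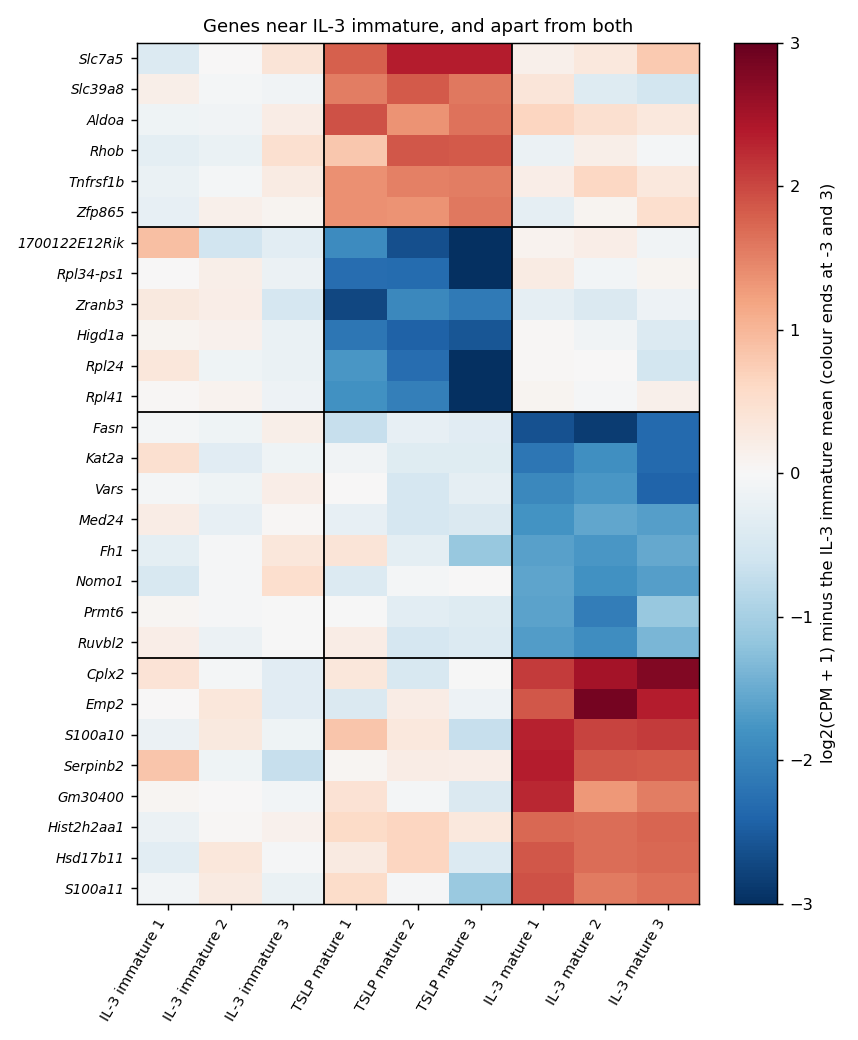
Log2(CPM + 1) minus the IL-3 immature mean (colour, from -3 to 3) for 28 genes in the 9 libraries of 3 groups. From top to bottom the blocks hold genes higher in TSLP mature cells than in both IL-3 stages, genes lower than in both, and genes near IL-3 immature cells that IL-3 mature cells had lowered or raised; in the last pair of blocks the TSLP mature columns are pale like the IL-3 immature ones.

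**Figure D5:**
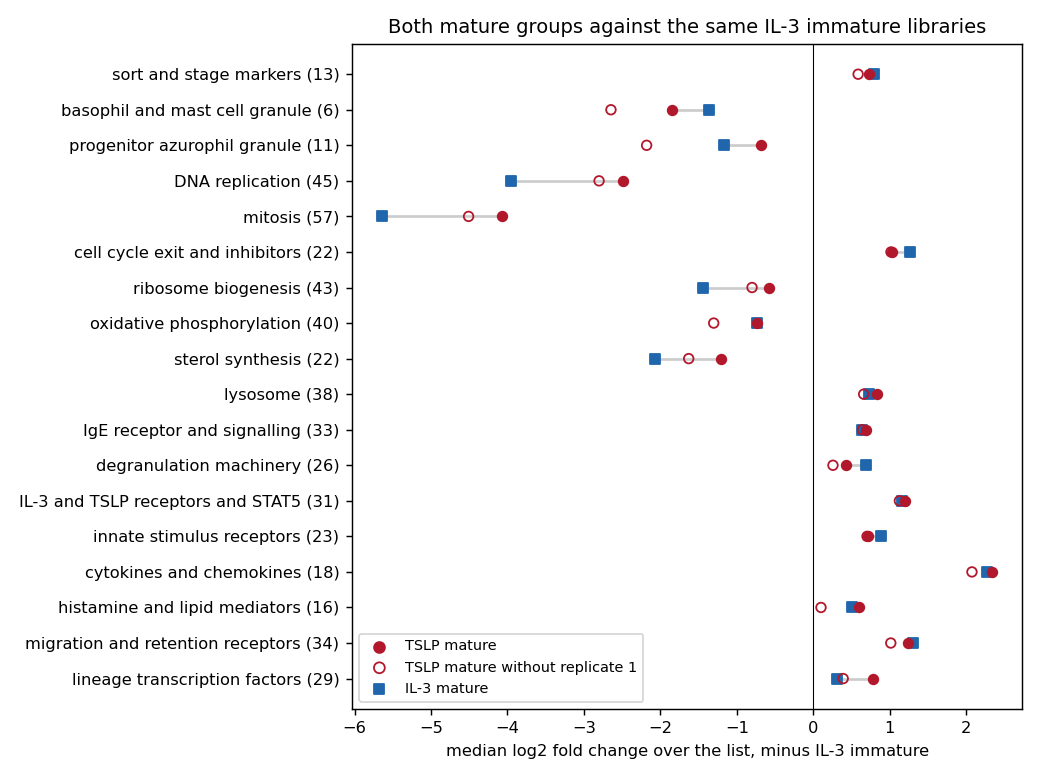
Median log2 fold change of 18 gene lists against the same 3 IL-3 immature libraries (horizontal axis) for TSLP mature cells, with and without replicate 1, and for IL-3 mature cells. The TSLP mature medians of DNA replication (-2.49), mitosis (-4.07), ribosome biogenesis (-0.58) and sterol synthesis (-1.21) lay nearer to 0 than the IL-3 mature ones (-3.95, -5.64, -1.44 and -2.06).

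A further set of genes placed TSLP mature cells apart from both IL-3 stages, which were within 2-fold of each other. Of the 10861 genes tested, 256 were higher and 252 lower with a mean of at least 10 CPM over the 12 libraries. They were picked by their calls against both IL-3 stages, in comparisons that share libraries, so their p-values restate the choice. Slc7a5, a transporter of large neutral amino acids, was at 37.4, 50 and 65.6 CPM in IL-3 immature, 175, 258 and 257 CPM in TSLP mature and 55.2, 61.9 and 86.6 CPM in IL-3 mature cells. It rose by 2.17 ± 0.23 against the immature cells and by 1.76 ± 0.23 against the mature ones (adjusted p = 1.78e-06 and 0.000198). The glycolytic enzyme gene Aldoa, the zinc importer Slc39a8, the GTPase gene Rhob and the TNF receptor gene Tnfrsf1b followed, at 1.48 to 1.85 on the log2 scale. Of the 6 named genes on the lower side, Rpl34-ps1, Rpl24 and Rpl41 belong to the ribosomal protein family with many pseudogenes and short transcripts, and TSLP mature replicate 3 held the lowest value of each. Their falls by 2.80, 2.44 and 2.35 were -1.32, -1.61 and -1.53 with the length trend removed, and Rpl24 fell by 3.05 when TSLP mature replicate 1 was left out. Zranb3, a DNA annealing helicase with a long transcript, fell by 2.58 ± 0.33 and Higd1a, a mitochondrial protein, by 2.48 ± 0.27 (adjusted p = 5.6e-06 and 1.7e-06).

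Markers of neutrophils, of macrophages and dendritic cells and of the B lineage were higher in TSLP mature than in IL-3 immature libraries. Among the TSLP mature libraries replicate 1 held the highest sums. The 16 neutrophil markers summed to 1812.8, 850.3 and 831.7 CPM in TSLP mature and to 288.4 to 332.0 CPM in IL-3 immature libraries. Of the 14 tested, 11 were higher and 1 lower. Without replicate 1, 5 were higher and 3 lower. The IL-3 mature libraries summed to 1605.7, 1361.3 and 1407.5 CPM, above TSLP mature replicates 2 and 3. Between the mature groups, 1 neutrophil marker was higher and 3 lower in TSLP cells. The 20 macrophage and dendritic cell markers summed to 2052.6, 969.7 and 888.6 CPM against 87.1 to 153.3 CPM, and 14 of 15 tested genes were higher, against 11 without replicate 1. IL-3 mature libraries summed to 390.6 to 594.8 CPM, and 8 of these markers were higher and none lower in TSLP mature than in IL-3 mature cells. Those of the B lineage, of which Cd79a, Cd79b and Ms4a1 were tested, summed to 219.3, 29.5 and 28.6 CPM against 7.1 to 8.2 CPM, and all 3 were higher, against 2 without replicate 1, when Cd79b was not called. B lineage sums in IL-3 mature libraries were 3.6 to 4.6 CPM. Of the mast cell markers, Mcpt4, Mcpt1, Tpsab1 and Mrgprb2 had no count in the 6 libraries. Eosinophil markers were higher for 2 and lower for 1 of 4 tested, erythroid and megakaryocyte markers higher for 1 and lower for 1 of 4, and Nkg7, the 1 tested gene of T and NK cells, was lower. Over all genes tested 27.0% were higher and 23.5% lower, and counts out of 4 genes cannot be told from these shares. The part of other cells in the differences was not tested. Without TSLP mature replicate 1 the mitosis and DNA replication lists still had 56 and 43 genes lower. Replicates 2 and 3 also held more neutrophil, macrophage and dendritic cell markers than the IL-3 immature libraries, so leaving out replicate 1 is no test of it.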

How the data were processed

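RNA had been captured on oligo(dT) beads, amplified as whole transcriptome, fragmented and sequenced on an Ion Proton. Per the study's methods and the submitters' processing notes, the authors trimmed reads with cutadapt, aligned them to reference RNA with Bowtie2 and deposited raw counts of reads per gene, not normalized. The notes name the builds GRCm39 and mm10, and the methods GRCm38. 1 unnamed row, equal to the sum of all genes, was dropped; it held 50% of each column.

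Genes were filtered with filterByExpr (minimum count 10, minimum total 15) and fitted in edgeR 4.0.16 (R 4.3.3) as 4 group means over 12 libraries with TMM scaling, so that all groups share the estimate of spread. Quasi-likelihood tests were adjusted by Benjamini-Hochberg, and genes were called at 0.05. Standard errors and 95% intervals are Wald values with the squeezed dispersion; a gene counted as within 2-fold when its interval lay inside 1 on the log2 scale. Folds against a group without counts set that group to 3 counts in sum, a limit for counting error only. The fit was tested on simulated counts.

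Lists of genes and the members named were chosen with earlier results of these data known. In each list the text draws on up to 4 called genes with the largest change at 10 CPM or more, up to 3 with the tightest bound within 2-fold, and the genes whose products the study sorted on or stimulated; the 8 largest changes in each direction over all genes, up to 8 genes in each direction with the largest IL-3 stage difference among those within 2-fold of IL-3 immature cells, and up to 6 apart from both IL-3 stages, complete the names. Genes named outside these rules, such as Mki67, Mcm5, Cdc6, Ms4a2 and the few members of a list that moved against the rest, were chosen after their values were seen. Replicates are 3 cultures; no source used here says whether they came from separate animals, so p-values measure the spread between these cultures. Transcript lengths, coordinates and shared 50-base words come from GENCODE vM21 (GRCm38), and promoters from RefSeq. Alternatives were DESeq2 1.42.0, other scalings and filters, thinning, a replicate block, each library left out and, added after the data were seen, removal of ribosomal RNA rows and of each library's length trend.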

Additional observations from a re-analysis of the deposited data

How the results depend on the processing

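The counts of genes called, higher, lower and within 2-fold stayed within 1.5 times under every alternative fit. The choice of margin was the exception: 1.5-fold in place of 2-fold left 764 genes within it, against 3476. Leaving out each library in turn gave 4562 to 5805 called genes, 2092 to 2679 higher, 2470 to 3126 lower and 2885 to 3496 within 2-fold. Genes lower outnumbered genes higher with DESeq2 (2723 and 2511), DESeq2 size factors (2793 and 2601), without Rn45s (2883 and 2506), without all 3 ribosomal RNA rows (2806 and 2574), with a filter of 10 CPM (2491 and 2105), with no filter (2861 and 2772), with libraries thinned to 1720065 counts (2353 and 1978) and without any single library. They did not with TMM on uncalled genes (2679 and 2724), within the 6 libraries (2253 and 2494), with the replicate number as a block (2666 and 3016) or with the length trend removed (2838 and 3021). Of 2833 values of 167 named genes under 17 alternatives, 2741 kept their side of the threshold, 46 lost a call and 45 gained one. The remaining value, of S100a11, changed sign and was called, at 1.10 with the length trend removed. Values that changed sign without a call in either fit are among the 2741. Fcer1a went from -0.34 to 0.07 with the length trend removed, and Srgn from 0.43 to -0.04 without TSLP mature replicate 1.

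Same-numbered replicates deviated together only weakly (r = 0.102, 0.040 and 0.130), and differently numbered ones gave -0.127 to 0.042. TSLP mature replicate 2 was about as near to IL-3 immature replicate 3 (0.042) as to its own number. With 3 cultures in each group these values cannot show whether the numbers pair the cultures. With the replicate number as a block 5682 genes were called, 3016 higher and 2666 lower.

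Depth limited calls at low counts, where a group without counts allows up to 0.286 CPM in TSLP mature and 0.350 CPM in IL-3 immature cells. Rn45s took 8.68% to 17.4% of the TSLP mature and 7.43% to 12.5% of the IL-3 immature counts, and it equalled Rn18s plus Rn28s1 to a ratio of 1.00 to 1.02 in each library, so counts of near-identical genes are uncertain.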

Other observations

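Gene groups that no comparison above had described were listed after their values had been seen, so their counts are descriptions with no test of the group. Of 22 genes of glucose uptake and glycolysis, 11 were higher and 2 lower in TSLP mature than in IL-3 immature cells, with a median log2 fold change of 0.46. Without TSLP mature replicate 1, 8 were higher and 2 lower, with a median of 0.24. With all libraries, 27.0% of all genes tested were higher and 23.5% lower. In IL-3 mature cells 7 of the 22 were higher and 7 lower than in the same IL-3 immature libraries, and 11 were higher and 2 lower in TSLP mature than in IL-3 mature cells. The TSLP immature libraries summed to 8041, 8356 and 9148 CPM over these genes, also above the IL-3 immature ones (5915 to 6533 CPM). Pgk1, phosphoglycerate kinase, had means of 407 CPM in IL-3 immature, 366 CPM in TSLP mature and 172 CPM in IL-3 mature cells. Its difference was -0.15 from IL-3 immature (adjusted p = 0.458) and 1.09 from IL-3 mature cells (adjusted p = 0.000524). Tpi1, triosephosphate isomerase, had means of 256, 268 and 125 CPM in the same order, and Pgam1, phosphoglycerate mutase, of 219, 273 and 127 CPM. The glucose transporter gene Slc2a1 was higher in both mature groups, at 99.2 CPM in TSLP mature and 66.8 CPM in IL-3 mature against 19.7 CPM in IL-3 immature cells.

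Of 20 cytosolic aminoacyl-tRNA synthetases, which charge tRNAs for translation, 13 were lower and none higher in TSLP mature than in IL-3 immature cells, with a median of -0.79 and summed levels of 568 to 615 CPM against 1001 to 1267 CPM. The IL-3 mature libraries summed to 505 to 563 CPM. Vars was the member furthest above its IL-3 mature level (1.80, adjusted p = 7.17e-05), while Kars and Nars were lower in TSLP mature than in IL-3 mature cells (-1.22 and -0.71, adjusted p = 0.0107 and 0.0125). Of 80 cytosolic ribosomal protein genes 64 were lower and none higher, with a median of -1.67, against 11 lower and 1 higher in IL-3 mature cells. These transcripts are short, with a median length of 1076.5 bases, their summed level differed between the TSLP mature libraries (36549.6, 20645.1 and 14226.3 CPM), and with the length trend removed 61 were lower and 2 higher, with a median of -1.32. The TSLP immature libraries summed to 34832.4, 37705.8 and 23772.8 CPM, also below the IL-3 immature ones (47861.9 to 56168.8 CPM), so the lower level was not particular to TSLP mature cells.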
